A study of Sus scrofa with 12 samples.

Results

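The 7 genes described here are markers of the cerebral cortex and of the striatum, which belong to the telencephalon, the part of the brain that borders the hypothalamus. They were chosen by symbol, and NEUROD6, TBR1, EMX1 and SLC17A7 stand for the cortex while PPP1R1B, ADORA2A and RGS9 stand for the striatum. All 7 were found among the 19256 mRNA genes of the series, each under 1 gene ID, and the values of their 15 transcripts were added up per gene. Values are TPM, a transcript abundance corrected for length and scaled to a fixed total per library, so levels can be compared between genes.

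The samples were long RNA libraries from a part of the hypothalamus of 3 germ-free (GF) pigs and 3 colonized (CG) pigs. All were piglets of 1 Chinese Bama sow, delivered by hysterectomy, raised in sterile isolators and aged 45 days by the labels. CG pigs had received fecal microbiota of an adult donor pig from day 3 to day 7 of life, and GF pigs had received none. Pigs of a group shared isolators, so isolator and colonization cannot be told apart.

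Excitatory neurons of the cortex arise from progenitors that carry EMX1, switch on TBR1 and NEUROD6 as they differentiate and package glutamate with the transporter encoded by SLC17A7. In the hypothalamus and thalamus, excitatory neurons mostly use the related transporter of SLC17A6. The striatum consists largely of GABAergic projection neurons that respond to dopamine, in which DARPP-32 (PPP1R1B), an adenosine receptor (ADORA2A) and the signal terminator RGS9 act in the same second messenger pathway. None of these genes is confined to the telencephalon, and DARPP-32 in particular is also known from hypothalamic neurons.

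Some libraries stood apart before any marker was compared. The summed level of 22 hypothalamus genes was 20.8 TPM in GF replicate 1, 1183 and 1088 TPM in GF replicates 2 and 3 and 1226 to 2699 TPM in CG pigs. Most of it was OXT, oxytocin, and the other 21 genes came to 20.6, 177 and 218 TPM in the GF libraries and 626 to 863 TPM in the CG libraries. NKX2-1, which specifies the ventral hypothalamus, measured 0.10, 5.49 and 3.11 TPM in the GF libraries and 35.4 to 40.0 TPM in the CG libraries. GF replicate 1, labelled hypothalamus, thus had NKX2-1 near 0, and its OXT was at 0.14 TPM. The summed level of 12 thalamus genes was 1297 and 1291 TPM in GF replicates 1 and 3 and 368 to 523 TPM in the other 4 libraries. RAMP3 alone held 177, 175 and 226 TPM of it in GF replicates 1, 2 and 3 and 283 to 333 TPM in CG pigs, a large part of the lower sums. The sum of 9 pituitary genes was 5442 TPM in CG replicate 3 and 2.46 to 262 TPM elsewhere. The labels list every pig as male, while the Y-linked gene ZFY measured 13.7 and 16.1 TPM (CG replicates 1 and 2) and 0.03 TPM or less in the other 4 libraries. Only CG libraries thus held ZFY, so sex, if it differed, cannot be fully told apart from colonization. In such bulk tissue, fewer cells of a type and less RNA per cell cannot be told apart.

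PPP1R1B (37.6 ± 11.7 TPM, SD over 6 libraries) and RGS9 (15.4 ± 7.17 TPM) had the highest means, and PPP1R1B exceeded RGS9 in 6 of 6 libraries. RGS9 was close to SLC17A7 in GF replicate 1 (4.08 against 3.79 TPM) and to TBR1 in GF replicate 2 (12.7 against 10.3 TPM). TBR1 (2.75 ± 3.76 TPM), SLC17A7 (2.27 ± 1.40 TPM) and ADORA2A (1.92 ± 0.51 TPM) formed a low group whose order was not fixed. TBR1 was above SLC17A7 in only 2 of 6 libraries and SLC17A7 above ADORA2A in 3 of 6. NEUROD6 (0.91 ± 0.70 TPM) was below ADORA2A in 6 of 6 libraries, and EMX1 was listed at 0 throughout. Ranked among the genes above 0 in each library, PPP1R1B lay at the 63.1 to 83.5 percentile and RGS9 at the 36.2 to 61.2 percentile, while SLC17A7 lay at the 14.1 to 35.4 percentile and NEUROD6 at the 12.2 to 23.4 percentile.

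**Figure D1:**
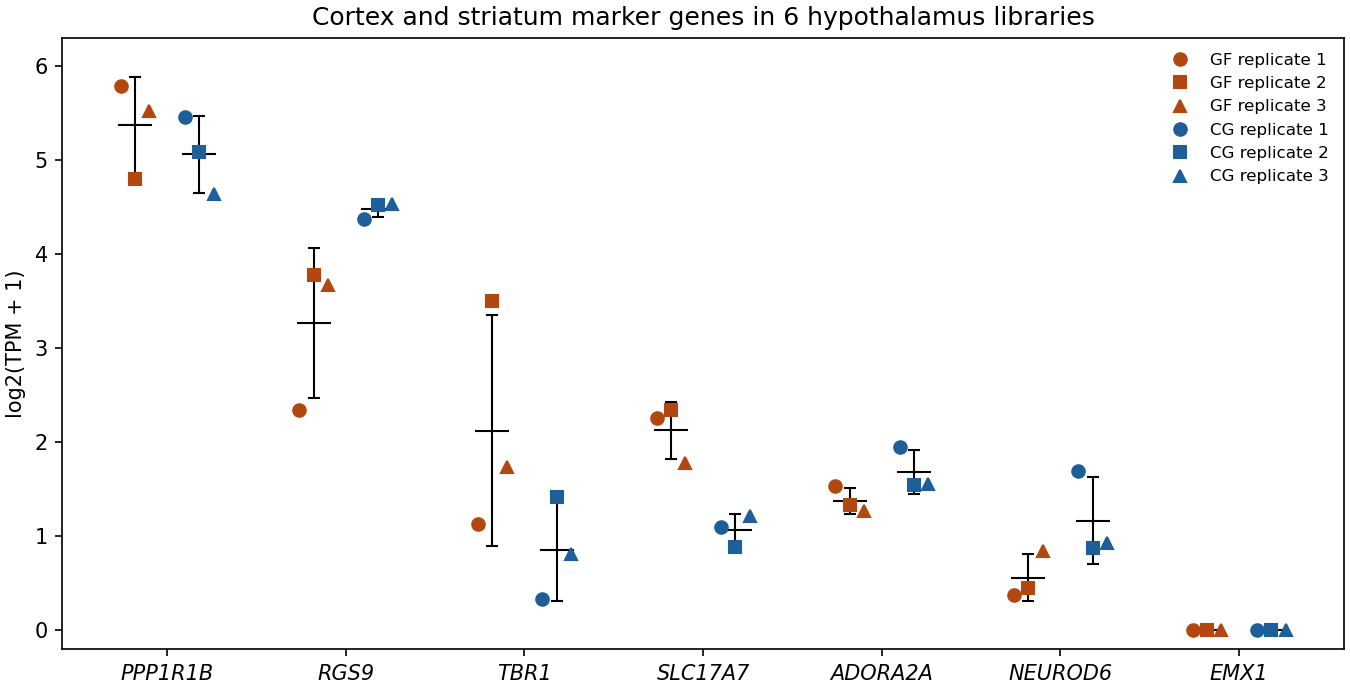
Level of each gene in each library, as log2(TPM + 1), with GF pigs in orange and CG pigs in blue, a marker shape per replicate number and the mean ± SD of each group of 3 in black. SLC17A7 is above 2.4 TPM in the 3 GF libraries and below 1.4 TPM in the 3 CG libraries, RGS9 shows the opposite order, and EMX1 is at 0 in all 6.

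Differences between GF and CG pigs were tested with limma on log2(TPM + 1) over the 14641 genes with at least 1 TPM in at least 3 libraries. Calls needed a Benjamini-Hochberg adjusted p below 0.05 together with a fold of at least 1 on the log2 scale (GF over CG), in either direction. Of the 7 genes 5 were tested, and 1 was called, SLC17A7, higher in GF pigs. Of all tested genes 2.89% were called, 0.471% higher and 2.42% lower. This split depended on the scaling, since 69 genes were higher and 354 lower as deposited, and 122 were higher and 97 lower after each library was centred on its median. At an unadjusted p below 0.05 the limma fit held SLC17A7 and RGS9, and 30.9% of all tested genes, and 0 of the 7 genes were called lower. With the adjusted p alone SLC17A7 was again the only gene of the 7, against 6.01% of all tested genes (1.08% higher and 4.93% lower). The groups did not overlap for 4 of the 7 genes, SLC17A7 on the high side and ADORA2A, RGS9 and NEUROD6, which was not tested, on the low side. Of all tested genes they did not overlap for 38.2%, with every GF library higher for 5.42% and lower for 32.8%. The median log2 fold change was 0.31 over the 5 tested genes and -0.23 over all tested genes. TBR1 and SLC17A7 passed the filter through their GF values and would not have passed on their CG values. The median over the tested genes and the call of SLC17A7 carry that choice. With no filter SLC17A7 was not called (limma adjusted p = 0.057).

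**Figure D2:**
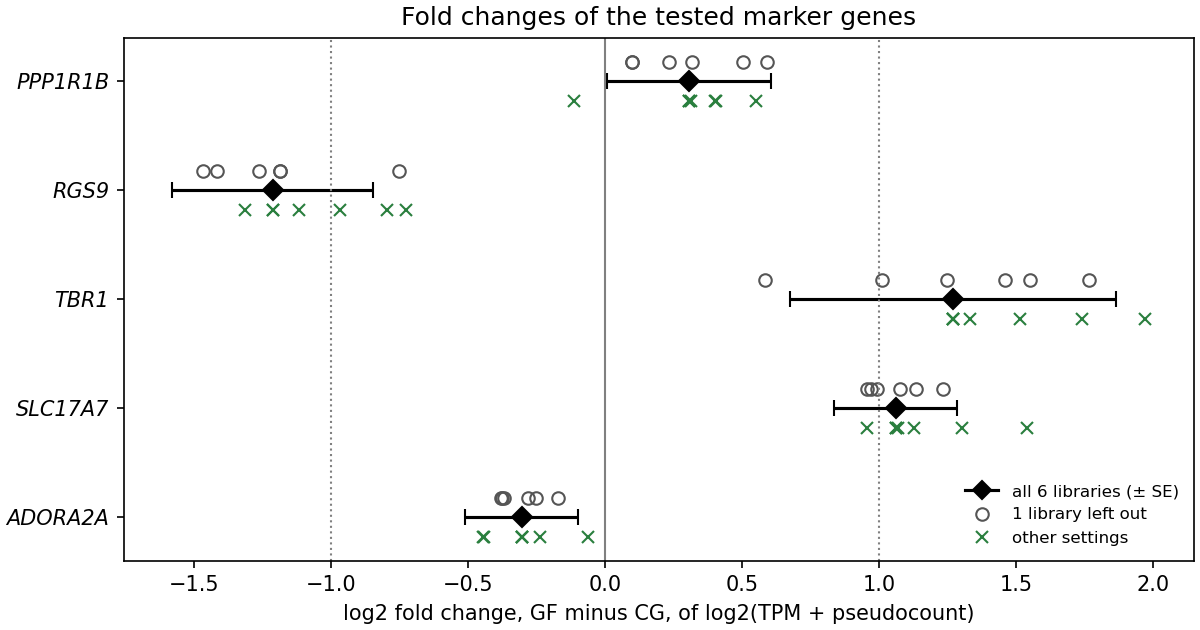
Log2 fold change of the 5 tested genes, GF over CG, with the SE as a bar (diamonds), the same value with 1 library left out (circles) and under the other settings (crosses), and dotted lines at the fold threshold. SLC17A7 lies next to the threshold at 1.06, and TBR1 moves from 0.58 to 1.77 with the library that is left out.

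SLC17A7 (ENSSSCG00000003170), the vesicular glutamate transporter VGLUT1 of cortical and hippocampal neurons, lies on chromosome 6 from 54511121 to 54521616 (RefSeq annotation of Sscrofa11.1). It measured 3.79, 4.06 and 2.44 TPM (GF replicates 1, 2 and 3) against 1.14, 0.85 and 1.32 TPM (CG replicates 1, 2 and 3). Every GF pig was above every CG pig, which held for 5.42% of all tested genes. The log2 fold change was 1.06 (SE 0.22, limma adjusted p = 0.047), with means of 3.43 ± 0.87 and 1.10 ± 0.24 TPM (SD, n = 3). An exact two-sided permutation test gave p = 0.10, the lowest value possible with 3 pigs a group.

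The call of SLC17A7 was lost whichever library was left out, with log2 fold changes of 0.95 to 1.23 and limma adjusted p = 0.060 to 0.16. It was 0.99 (adjusted p = 0.11) without GF replicate 1 and 1.13 (adjusted p = 0.079) without CG replicate 3. Sums of other tissues were also higher in GF pigs, at 142 to 331 TPM against 84.0 to 129 TPM for 7 choroid plexus genes and 425 to 1192 TPM against 8.03 to 18.2 TPM for 3 erythrocyte genes, with none of these 10 genes at 0 in all libraries. The separation of the sums came from TTR and HBB, since the groups overlapped without TTR (67.8 to 131 TPM against 74.7 to 121 TPM) and without HBB (4.96 to 20.02 TPM against 5.00 to 8.39 TPM). Their part in the SLC17A7 difference was not tested.

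Nearly all of the SLC17A7 signal came from ENSSSCT00000003520, which held 78.6% to 100% of the gene in each library. Of the other transcripts, ENSSSCT00000078408 reached 0.81 TPM in GF replicate 1 and ENSSSCT00000091058 was listed at 0 throughout. Tested alone, ENSSSCT00000003520 did not pass (log2 fold change 0.96, adjusted p = 0.069).

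SLC17A7 was a minor glutamate transporter gene in all 6 libraries. SLC17A6, which encodes VGLUT2, measured 137, 24.3 and 130 TPM (GF) against 57.7 to 78.5 TPM (CG) (log2 fold change 0.11, adjusted p = 0.92). It was 36.3, 5.995 and 53.3 times the level of SLC17A7 in GF replicates 1, 2 and 3 and 43.7 to 90.6 times in CG pigs. The low ratio in GF replicate 2 joined the highest SLC17A7 level with the lowest SLC17A6 level. SLC17A8, which encodes VGLUT3, measured 0.13 to 1.51 TPM (GF) against 1.60 to 1.78 TPM (CG) (log2 fold change -0.59, adjusted p = 0.24). SLC17A8 was below SLC17A7 in every GF pig and above it in every CG pig. Of 7 genes of vesicular transmitter transporters and GABA synthesis, these included, 6 were tested and limma called 0, with 0 at an unadjusted p below 0.05 (median log2 fold change -0.22).

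**Figure D3:**
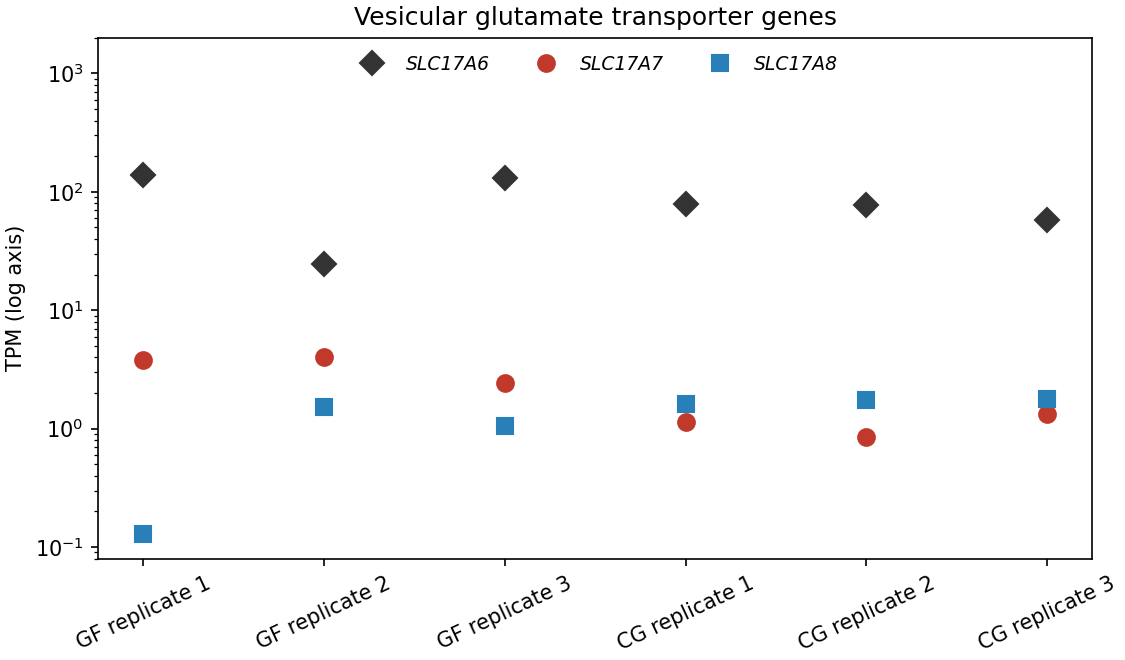
TPM of the vesicular glutamate transporter genes in each library, on a log axis, with SLC17A6 as black diamonds, SLC17A7 as red circles and SLC17A8 as blue squares. SLC17A6 is the highest in all 6 libraries, and SLC17A7 and SLC17A8 change order between GF and CG pigs.

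TBR1 (ENSSSCG00000015891), a T-box factor of early-born and deep-layer cortical neurons, lies on chromosome 15 from 68208884 to 68222993. It measured 1.19, 10.3 and 2.34 TPM (GF replicates 1, 2 and 3) against 0.26, 1.67 and 0.75 TPM (CG replicates 1, 2 and 3). The groups overlapped, since CG replicate 2 was above GF replicate 1, and GF replicate 2 was far above all other pigs. The log2 fold change of 1.27 (SE 0.60) did not pass (limma adjusted p = 0.19, exact permutation p = 0.20). Without GF replicate 2 it was 0.58 (adjusted p = 0.31), without GF replicate 1 it was 1.77 (adjusted p = 0.14) and without CG replicate 3 it was 1.25 (adjusted p = 0.30).

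NEUROD6 (ENSSSCG00000039501), a bHLH factor of cortical pyramidal neurons, lies on chromosome 18 from 41757356 to 41763837. It measured 0.30, 0.37 and 0.80 TPM (GF replicates 1, 2 and 3) against 2.24, 0.83 and 0.90 TPM (CG replicates 1, 2 and 3). Every GF pig was below every CG pig, with GF replicate 3 just under CG replicate 2. Only CG replicate 1 reached 1 TPM, so the gene was below the filter and was not tested. Its means were 0.49 ± 0.27 and 1.32 ± 0.79 TPM, and with no filter the log2 fold change was -0.60 (SE 0.25, limma adjusted p = 0.19).

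EMX1 (ENSSSCG00000008308), a homeobox gene of cortical progenitors and neurons, lies on chromosome 3 from 69842061 to 69863940. Its single transcript was listed at 0 TPM in all 6 libraries, as were 300 genes of the sheet in all. Of 13 genes of common use such as ACTB and GAPDH, none was at 0 in any library, and their lowest value was 10.2 TPM. At such levels they cannot show whether a gene of low level would have been detected. The related factor EMX2, which is also used outside the cortex, measured 1.35, 1.80 and 1.25 TPM (GF) against 3.38, 2.41 and 2.73 TPM (CG). EMX2 was lower in every GF pig, but the log2 difference of -0.64 was not called (adjusted p = 0.086).

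The 4 cortical genes did not move together. SLC17A7 and TBR1 had positive fold changes, NEUROD6 was lower in every GF pig, and EMX1 gave no value. Added up, the 4 genes came to 5.28, 14.7 and 5.58 TPM in GF replicates 1, 2 and 3 and to 3.64, 3.35 and 2.97 TPM in CG replicates 1, 2 and 3. Most of the high sum of GF replicate 2 was TBR1.

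PPP1R1B (ENSSSCG00000017498), which encodes DARPP-32, an inhibitor of protein phosphatase 1 that dopamine switches on through protein kinase A, lies on chromosome 12 from 22681244 to 22690978. It measured 54.2, 26.9 and 44.8 TPM (GF replicates 1, 2 and 3) against 43.0, 32.9 and 24.0 TPM (CG replicates 1, 2 and 3). The groups overlapped, and the spread within each was larger than the difference between means of 42.0 ± 13.9 and 33.3 ± 9.49 TPM. The log2 fold change of 0.31 (SE 0.30) did not pass (limma adjusted p = 0.52, exact permutation p = 0.40). It was 0.10 both without GF replicate 1 (adjusted p = 0.88) and without CG replicate 3 (adjusted p = 0.86), and -0.11 without both (adjusted p = 0.83). GF replicates 1 and 3, with the highest PPP1R1B, were also the libraries with the high thalamus sums given above, and the part of these in the PPP1R1B level was not tested.

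Expressed PPP1R1B came from 3 of its 4 transcripts in all 6 libraries, in similar proportions. ENSSSCT00000019051 held 39.8% to 53.5% of the gene, ENSSSCT00000046553 held 19.7% to 35.1% and ENSSSCT00000060749 held 21.8% to 26.8%. The last, ENSSSCT00000081583, was listed at 0. None of the 3 passed when tested alone (adjusted p = 0.52, 0.65 and 0.75 in this order).

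RGS9 (ENSSSCG00000035402), which speeds the end of G protein signals downstream of dopamine receptors and, in photoreceptors, of light, lies on chromosome 12 from 12015321 to 12087982. It measured 4.08, 12.7 and 11.7 TPM (GF replicates 1, 2 and 3) against 19.8, 22.0 and 22.1 TPM (CG replicates 1, 2 and 3). Every GF pig was below every CG pig, as for 32.8% of all tested genes, and GF replicate 1 was the lowest. The means were 9.51 ± 4.72 and 21.3 ± 1.34 TPM, and the log2 fold change of -1.21 (SE 0.37) did not pass (limma adjusted p = 0.081, exact permutation p = 0.10). It was -0.75 (adjusted p = 0.082) without GF replicate 1, -1.19 (adjusted p = 0.16) without CG replicate 3 and -1.47 (adjusted p = 0.057) without GF replicate 2. GF replicate 1 was the library with the lowest sum of hypothalamus genes, and the part of this in the RGS9 difference was not tested.

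The transcripts of RGS9 took different shares in different pigs. ENSSSCT00000040224 measured 3.49, 12.1 and 5.68 TPM (GF) against 13.9, 8.98 and 12.9 TPM (CG), and its groups overlapped. ENSSSCT00000052467 measured 0.54, 0 and 5.20 TPM (GF) against 4.52, 12.1 and 7.06 TPM (CG), and its groups overlapped as well. The share of ENSSSCT00000052467 ran from 0% in GF replicate 2 to 54.7% in CG replicate 2, with 44.3% in GF replicate 3 and 22.9% in CG replicate 1. Neither passed when tested alone, with log2 fold changes of -0.80 (adjusted p = 0.23) and -1.98 (adjusted p = 0.11). The remaining pair of transcripts stayed at 1.19 TPM or less.

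**Figure D4:**
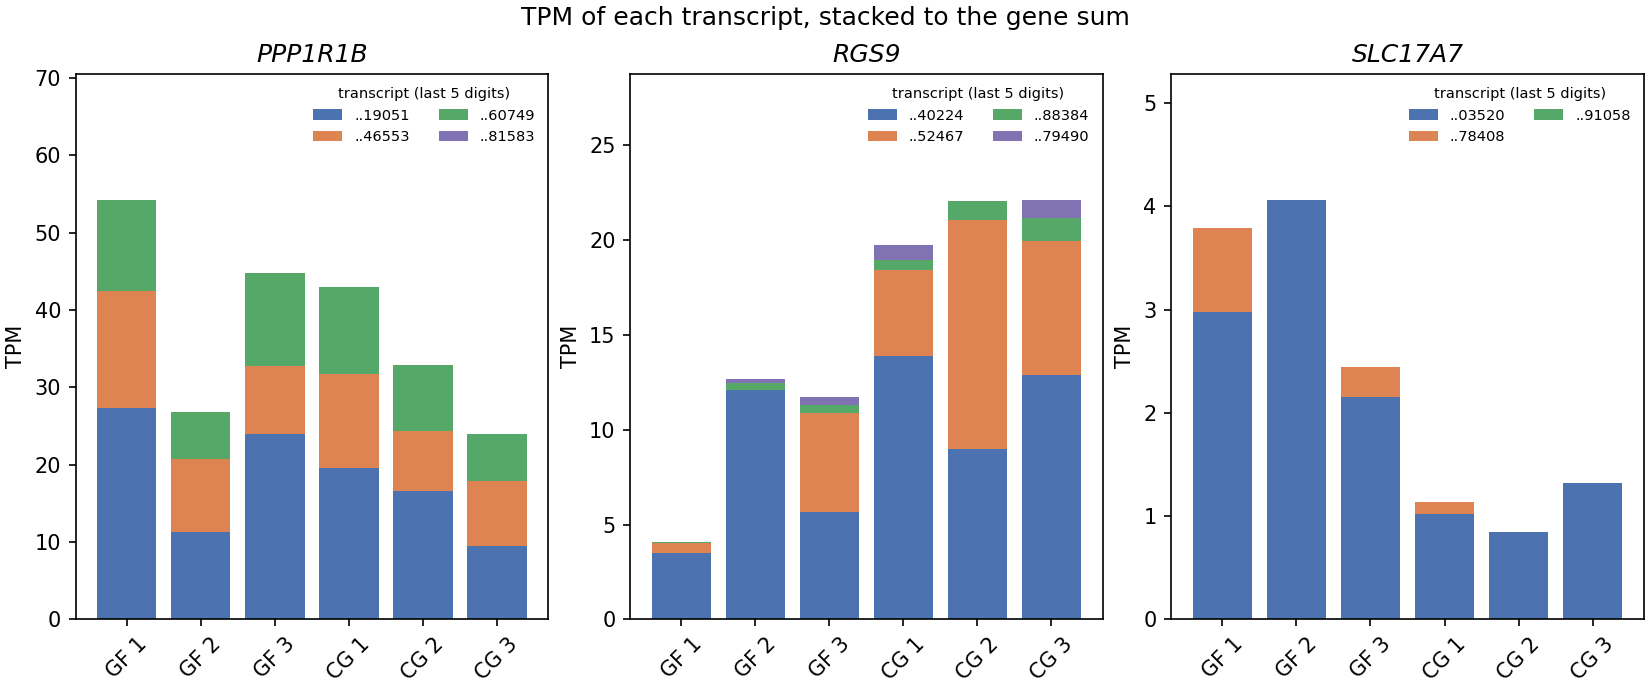
TPM of each transcript in each library, stacked to the sum of the gene, for PPP1R1B, RGS9 and SLC17A7, with transcripts named by the last digits of their IDs. The makeup of PPP1R1B is alike in all 6 libraries, RGS9 shifts between its 2 main transcripts from pig to pig, and SLC17A7 is nearly all 1 transcript.

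ADORA2A (ENSSSCG00000010054), the adenosine receptor of those striatal neurons that carry the dopamine D2 receptor, lies on chromosome 14 from 49467186 to 49485845. It measured 1.89, 1.52 and 1.41 TPM (GF replicates 1, 2 and 3) against 2.87, 1.91 and 1.94 TPM (CG replicates 1, 2 and 3). GF replicate 1 was just under CG replicates 2 and 3, so the groups did not overlap, by a narrow margin. The log2 fold change of -0.31 (SE 0.21) did not pass (limma adjusted p = 0.35, exact permutation p = 0.10), and it was -0.06 (adjusted p = 0.89) with libraries centred on their median. Without GF replicate 1 it was -0.38 (adjusted p = 0.35) and without CG replicate 3 it was -0.37 (adjusted p = 0.33).

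Like the cortical genes, the 3 striatal genes differed in direction, with PPP1R1B positive and RGS9 and ADORA2A negative. None was called. Their sum, which was mostly PPP1R1B, was 60.2, 41.1 and 58.0 TPM for GF against 65.6, 56.9 and 48.0 TPM for CG pigs, and the groups overlapped.

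Of 20 other genes of striatal projection neurons, 18 were in the sheet and 17 were tested, of which 2 were called lower, 0 higher and 15 not at all, against 2.42% called lower among all tested genes. Their median log2 fold change was -0.62, against -0.23 over all tested genes. TAC1, the precursor of substance P, which is also a hypothalamic neuropeptide, measured 8.19, 20.7 and 31.9 TPM (GF) against 58.3, 88.3 and 68.9 TPM (CG) (log2 fold change -1.94, SE 0.43, adjusted p = 0.048). GPR52, an orphan receptor that raises cAMP, measured 1.72, 2.89 and 4.30 TPM (GF) against 8.31, 8.91 and 6.51 TPM (CG) (log2 fold change -1.21, adjusted p = 0.0497). Both lost the call whichever library was left out, with adjusted p of 0.055 to 0.16 for TAC1 and 0.062 to 0.17 for GPR52. MEIS2, a homeobox factor of striatal and other neurons, pointed the other way, at 18.7 to 22.1 TPM (GF) against 7.30 to 15.1 TPM (CG) (log2 fold change 0.98, adjusted p = 0.064).

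DRD2 exceeded ADORA2A in 6 of 6 libraries, by 1.90 to 9.71 times, and PENK, the enkephalin precursor that striatal D2 neurons share with ADORA2A, exceeded it by 9.64 to 77.4 times. The lowest of both ratios were in GF replicate 1, where PENK stood at 18.2 TPM against 97.6 to 140 TPM in the other 5 libraries. Neither PENK (log2 fold change -1.17, adjusted p = 0.23) nor DRD2 (-0.62, adjusted p = 0.34) passed. DRD1 stood at 0.10 to 0.18 times the level of PPP1R1B in every library, with a log2 fold change of 0.31 (adjusted p = 0.51).

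Around DARPP-32 and RGS9, 17 of 20 genes of dopamine and cAMP signaling were in the sheet and tested, of which limma called 0, with a median log2 fold change of -0.08. At an unadjusted p below 0.05 it held 4 of the 17, against 30.9% of all tested genes. PTPN5, a striatum-enriched tyrosine phosphatase, passed the adjusted p without the fold (log2 fold change -0.82, adjusted p = 0.049), with 35.9, 47.2 and 56.9 TPM (GF) against 75.7 to 91.6 TPM (CG), and missed it whichever library was left out (adjusted p = 0.055 to 0.17). PPP3CA, a calcineurin subunit (-0.55, adjusted p = 0.088), PRKACA, a catalytic subunit of protein kinase A (-0.39, adjusted p = 0.14), and ADCY5, the main adenylyl cyclase of the striatum (-0.31, adjusted p = 0.16), did not pass. GNB5, the obligate beta subunit partner of RGS9, was 5.26 to 10.2 times its level in 5 libraries and 40.5 times in GF replicate 1, where RGS9 was lowest. RGS7BP, which anchors RGS9 to the membrane, was 21.7 times RGS9 in GF replicate 1 and 0.86 to 3.22 times in the other 5 libraries.

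Of 19 other genes of cortical projection neurons, 17 were in the sheet and 13 tested, of which limma called 0, with 1 at an unadjusted p below 0.05 (30.9% of all tested genes). Their median log2 fold change was -0.04, with 6 positive and 7 negative values. The smallest p values were those of RORB, a layer 4 factor (-0.67, adjusted p = 0.10), NRN1, a neurite growth factor (1.18, adjusted p = 0.17), SLA (-1.14, adjusted p = 0.17) and BCL11A, a zinc finger factor (-0.56, adjusted p = 0.22). NEUROD2, a close relative of NEUROD6, measured 0.21 to 0.45 TPM (GF) against 0.26 to 0.97 TPM (CG) and was not tested. EOMES, the factor that precedes TBR1 in cortical progenitors, measured 0.02, 1.15 and 0.13 TPM (GF) against 0.20, 2.59 and 0.57 TPM (CG). It was not tested. Genes used by many forebrain neurons were abundant, such as CAMK2A at 109 to 241 TPM (GF) and 159 to 206 TPM (CG).

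Of 14 telencephalon patterning factors, all in the sheet, 13 were tested and limma called 0, with 2 positive and 11 negative values (median log2 fold change -0.64). At an unadjusted p below 0.05 it held 4 of the 13, against 30.9% of all tested genes. BCL11B, a factor of striatal and deep cortical neurons, measured 0.75, 1.53 and 2.01 TPM (GF) against 3.59, 4.68 and 3.46 TPM (CG) (-1.04, adjusted p = 0.054). DLX5 (-1.63, adjusted p = 0.057) and DLX1 (-1.94, adjusted p = 0.14), factors of GABAergic neurons in the telencephalon and in the hypothalamus, were lowest in GF replicate 1, at 0.39 and 0.53 TPM. DLX5 passed only when GF replicate 2 was left out, with adjusted p = 0.041. Of 8 hippocampus genes 7 were tested and 1 was called lower, against 2.42% of all tested genes. At an unadjusted p below 0.05 limma held 3 of the 7, against 30.9% of all tested genes. The called gene was ZBTB20 (-1.10, adjusted p = 0.026), with 41.0, 54.4 and 51.8 TPM (GF) against 94.8 to 115 TPM (CG). ZBTB20 kept the call only without GF replicate 2 among the libraries left out in turn (adjusted p = 0.055 to 0.11 without each of the other 5), and its log2 fold change was -0.86 after centring. CNIH3 (-0.93, adjusted p = 0.053) and NPTX1 (-2.05, adjusted p = 0.098) did not pass.

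**Figure D5:**
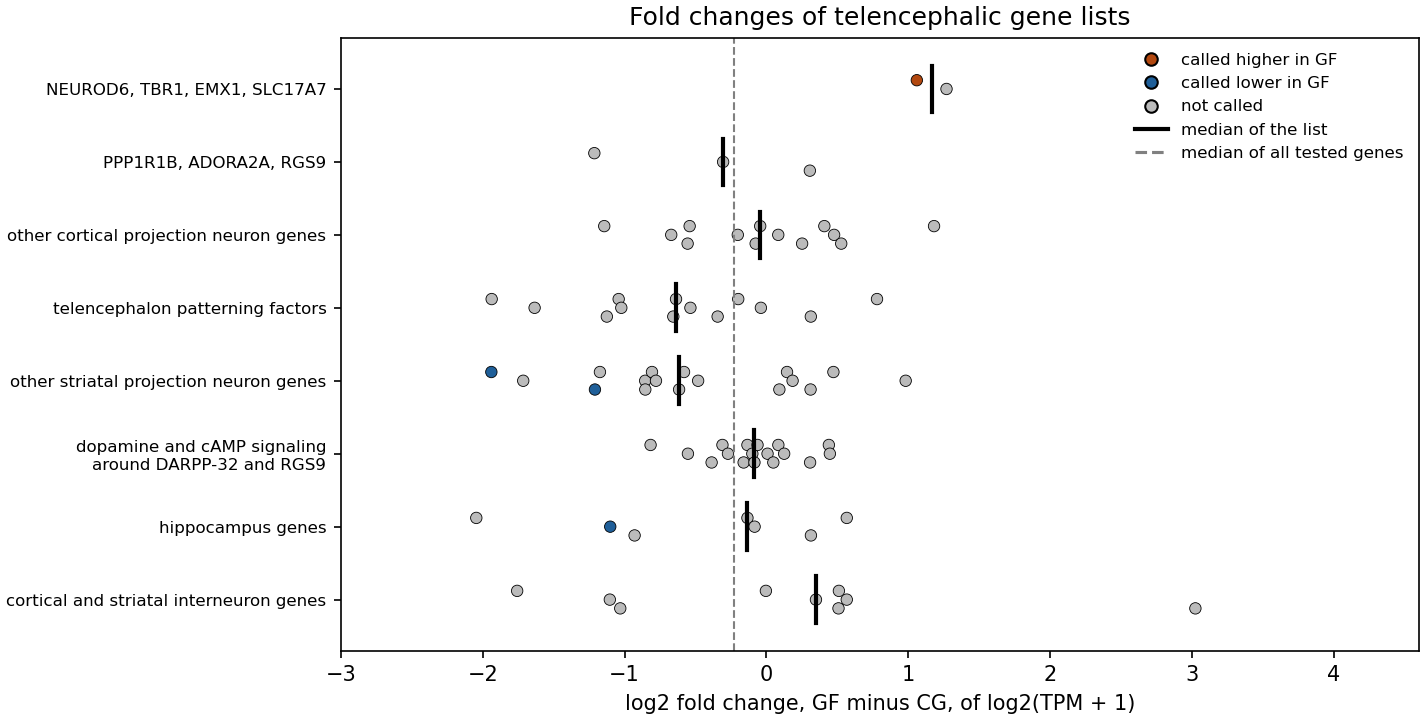
Log2 fold change, GF over CG, of each tested gene of the cortical and striatal markers and of 6 related gene lists, as points coloured by call, with the median of each list as a black bar and the median of all tested genes as a dashed line. SLC17A7 is the single gene called higher, TAC1, GPR52 and ZBTB20 are called lower, and the medians of the other cortical genes (-0.04) and other striatal genes (-0.62) lie on either side of -0.23.

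Genes with the most similar pattern over the 6 libraries were sought for each marker among 6324 or 6325 genes that had a symbol, averaged 1 TPM or more and varied with an SD of 0.3 or more in log2(TPM + 1). Points share library, scaling and group, so the correlations are descriptions. For SLC17A7 the closest was TTR, a secreted thyroid hormone carrier made in choroid plexus (Pearson r = 0.996), followed by C21orf91 (0.992) and PTGDS, a prostaglandin D synthase (0.983). For RGS9 the closest were HAP1, the huntingtin-associated protein (0.997), THSD7B (0.997) and FNDC9 (0.996), and 826 genes had an r over 0.9. Fewer genes followed the other markers, with 80 over 0.9 for SLC17A7, 35 for PPP1R1B, 11 for ADORA2A and 9 for TBR1. TSPAN11 (0.999), FBP1 (0.961) and CUTC (0.952) were closest to TBR1, and CENPF (0.974), LEF1 (0.971) and LRRC20 (0.965) to PPP1R1B. IMMP2L (0.948), STAC2 (0.947) and C9orf24 (0.943) were closest to ADORA2A.

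The markers did not follow each other closely. Over the 6 libraries, Pearson r of log2(TPM + 1) ran from -0.81 for SLC17A7 with RGS9 to 0.78 for NEUROD6 with ADORA2A. Between the cortical genes it was 0.64 for TBR1 with SLC17A7, -0.64 for NEUROD6 with TBR1 and -0.74 for NEUROD6 with SLC17A7. Between the striatal genes it was 0.31 for ADORA2A with RGS9, 0.17 for PPP1R1B with ADORA2A and -0.66 for PPP1R1B with RGS9.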

How the data were processed

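Long RNA of 6 pigs was analysed. As deposited, values are TPM of 47559 annotated mRNA transcripts, which the authors aligned to Sscrofa11.1. The study's methods name TopHat, Cufflinks and HTSeq, and the submitters' processing notes name fastp, HISAT and RSEM. TPM keep no depth, so the reads behind a value are unknown and no counting interval is given. Small RNA and lncRNA values were not used here. A library's mRNA TPM summed to 793723 to 845526.

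Transcripts were added up per gene ID, and blank symbols were filled for 654 of 4794 IDs from a table of names. GF and CG pigs were compared with limma 3.58.1 (R 4.3.3, limma-trend, log2(TPM + 1), Benjamini-Hochberg over all tested genes), since the test of the study needs counts. Single values had an exact permutation test. The limma fit was tested on simulated data. Figures used Python 3.11.15 and matplotlib 3.10.9.

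The markers, lists and alternatives were chosen with earlier results of these data known. Named are the 7 markers, the called genes of the lists and up to 4 per list with the smallest p (some are not reported here), related family members and the 3 genes most like each marker. Further genes (NKX2-1, OXT, ZFY, NEUROD2, EOMES, CAMK2A, GNB5, RGS7BP) were named after their values were seen. Lists of other cell types are given as sums and counts.

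Alternatives were a pseudocount of 0.1, no low-value filter, no fold threshold, each library left out, the replicate number as a block, mitochondrial genes out of the scaling, median-centred libraries, transcripts in place of genes and, chosen after seeing the data, leaving out GF replicate 1 with CG replicate 3.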

Additional observations from a re-analysis of the deposited data

How the results depend on the processing

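The single call among the markers, SLC17A7, stood with a pseudocount of 0.1, with median-centred libraries and with no fold threshold (1 call each), and 0 markers were called in every other setting. There its log2 fold change was 1.06 with no low-value filter (adjusted p = 0.057), 1.13 with mitochondrial genes out of the scaling (adjusted p = 0.059), 0.96 for its main transcript, 1.07 without GF replicate 1 and CG replicate 3 and 0.95 to 1.23 with 1 library left out. With the replicate number as a block it was 1.06 (adjusted p = 0.093). Same-numbered libraries did not deviate together (r of deviations -0.02, 0.06 and -0.01), and GF replicate 1 correlated best with CG replicate 3, so the pigs share only a number. PPP1R1B turned from 0.31 to -0.11 without GF replicate 1 and CG replicate 3 (0.10 to 0.59 with 1 library left out). TBR1, ADORA2A and RGS9 kept their direction and were never called. Of all mRNA genes 423 were called, against 192 with no filter, 22 to 717 with 1 library left out, 31 without GF replicate 1 and CG replicate 3, 35 with the block, 185 without mitochondrial genes in the scaling, 219 after centring, 880 with no fold threshold and 1623 transcripts in place of genes. Of the other listed genes 18 were called, against 3 to 32 with 1 library left out, 4 without GF replicate 1 and CG replicate 3, 7 with the block and 33 for transcripts. Among fits with 1 library left out, that without GF replicate 2 gave the highest counts (717 and 32). The cause of these shifts was not tested.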

Other observations

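Interneuron genes of the cortex and striatum were not part of the comparisons above. Of 10 listed, 9 were tested and limma called 0, with 2 at an unadjusted p below 0.05, against 30.9% of all tested genes (median log2 fold change 0.35). PVALB, the calcium buffer parvalbumin of fast-spiking interneurons and of other neurons such as those of the thalamic reticular nucleus, measured 266, 23.3 and 5.46 TPM (GF replicates 1, 2 and 3) against 2.47 to 4.12 TPM (CG). Every GF pig was above every CG pig, but the log2 fold change of 3.02 did not pass (limma adjusted p = 0.13). SST, somatostatin, which also marks hypothalamic neurons, was lowest in GF replicate 1, with 19.98 TPM against 284 and 259 TPM in the other GF pigs and 316 to 592 TPM (CG), a log2 fold change of -1.76 (adjusted p = 0.245). NPY, neuropeptide Y, was highest in that library, with 43.5 TPM against 3.72 and 2.76 TPM in the other GF pigs and 11.6 to 27.3 TPM (CG), a log2 fold change of -1.10 (adjusted p = 0.43). VIP measured 0.03, 1.02 and 0.36 TPM (GF) against 1.29 to 2.62 TPM (CG), a log2 fold change of -1.03 (adjusted p = 0.078). The GABA synthesis genes GAD1 (-0.27, adjusted p = 0.61) and GAD2 (-0.35, adjusted p = 0.16) did not pass.

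Lists of other cell types were also counted. Of 21 tested hypothalamus genes 10 fell in GF pigs (NKX2-1, SIX6, BSX, NR5A1, HMX3, FOXB1, AGRP, GHRH, KISS1 and HDC), against 2.42% of all tested genes. Of these 10, all but FOXB1 passed the filter through their CG values and would not have passed on their GF values. The count carries that choice and cannot be set squarely against the share of all tested genes. With each library left out in turn, AGRP and BSX were called in all 6 fits and the other 8 in 1 to 3 of 6. The genes called higher were TTR and CLIC6 of 6 choroid plexus genes, MBP of 5 oligodendrocyte genes and HBB of 2 erythrocyte genes, against 0.471% of all tested genes, and with each library left out in turn they were called in 2, 1, 4 and 6 of 6 fits. CLIC6 passed the filter through its GF values and would not have passed on its CG values. AQP1 of the choroid plexus list and HBM of the erythrocyte list were below the filter. Limma called 0 of 12 thalamus, 8 pan-neuronal, 6 astrocyte and 6 microglia genes. At an unadjusted p below 0.05 there were 6, 3, 0 and 0 in this order, against 30.9% of all tested genes. The thalamus genes had 9 positive and 3 negative values, with a median log2 fold change of 1.54 against -0.23 over all tested genes.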
